A study of Mus musculus with 12 samples.

Results

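The costimulatory and checkpoint ligands described here are 9 genes, Cd40, Cd80, Cd86, Cd83, Cd274, Pdcd1lg2, Icosl, Icam1 and Slamf7, taken by symbol from a table of 55401 genes. All 9 matched 1 row each. Their transcripts were measured by RNA sequencing of bone-marrow-derived macrophages (BMDMs), which are cells grown from mouse bone marrow with the growth factor M-CSF, here for 7 days at 20 nM. Every library came from Irx3-/- cells of C57BL/6J mice, so the deletion is shared by all groups, and so is treatment for 4 h with 100 ng/ml LPS (lipopolysaccharide), a component of bacterial walls sensed by Toll-like receptor 4. The cells were infected with adeno-associated virus (AAV) and overexpressed IRX3_S389A, IRX3_S361A, IRX3_WT or GFP, with 3 libraries each. IRX3 is an Iroquois-class homeodomain protein that binds DNA, IRX3_WT is its wild-type form, and the other IRX3 names give a serine replaced by alanine. The labels name neither the promoter that drives the constructs nor the species of the IRX3 sequence, and they hold no unstimulated group, so no value below is a response to LPS. They also do not say whether the 3 libraries of a group came from separate animals or cultures, so the p-values speak only of the variation among these libraries, which may be technical.

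Macrophages talk to T cells through surface proteins. CD80 and CD86 are the B7 ligands of the T cell receptors CD28, which activates, and CTLA-4, which inhibits. ICOSL binds ICOS on activated and follicular helper T cells, while PD-L1 (encoded by Cd274) and PD-L2 (encoded by Pdcd1lg2) bind the inhibitory receptor PD-1. CD40 is the receptor by which T cells carrying CD40 ligand signal back into the macrophage, CD83 is a surface protein of mature antigen-presenting cells that slows the turnover of CD86 and MHC class II, ICAM-1 is the ligand of the integrin LFA-1, and SLAMF7 is a self-binding receptor of the SLAM family. LPS is known to induce most of these genes in macrophages through NF-kappaB and interferon signalling.

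RefSeq starts on GRCm38.p6 were at hand for 6 of the 9 genes (Cd80, Cd274, Pdcd1lg2, Icosl, Icam1 and Slamf7). The 4 promoters below are shown because Cd80 and Slamf7 had the most similar pattern over the groups of all pairs of ligands, and Cd274 and Icosl the least similar. Each runs from 250 bases before the start and ends just before the start or where an annotated exon begins. Capitals mark matches, on either strand, to the NF-kappaB letters (GGG, then any 5 bases, then CC) or the AP-1 letters TGANTCA. Positions are counted back from the RefSeq start.
Cd80 (chr16:38458683-38458932, plus strand): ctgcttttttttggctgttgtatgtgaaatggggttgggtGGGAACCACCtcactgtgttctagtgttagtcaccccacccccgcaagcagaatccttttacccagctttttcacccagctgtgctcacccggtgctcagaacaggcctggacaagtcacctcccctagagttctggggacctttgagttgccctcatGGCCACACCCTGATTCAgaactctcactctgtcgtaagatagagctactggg
Slamf7 (chr1:171649008-171649249, minus strand): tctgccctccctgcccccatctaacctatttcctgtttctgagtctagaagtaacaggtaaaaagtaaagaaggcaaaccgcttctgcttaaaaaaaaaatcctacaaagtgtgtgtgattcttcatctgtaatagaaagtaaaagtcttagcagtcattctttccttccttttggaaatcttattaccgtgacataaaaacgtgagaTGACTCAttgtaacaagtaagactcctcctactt
Cd274 (chr19:29367188-29367437, plus strand): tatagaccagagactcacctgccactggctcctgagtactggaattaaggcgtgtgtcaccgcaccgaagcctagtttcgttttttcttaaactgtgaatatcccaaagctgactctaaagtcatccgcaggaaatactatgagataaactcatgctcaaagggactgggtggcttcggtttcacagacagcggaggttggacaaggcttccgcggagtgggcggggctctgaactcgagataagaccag
Icosl (chr10:78069118-78069301, plus strand): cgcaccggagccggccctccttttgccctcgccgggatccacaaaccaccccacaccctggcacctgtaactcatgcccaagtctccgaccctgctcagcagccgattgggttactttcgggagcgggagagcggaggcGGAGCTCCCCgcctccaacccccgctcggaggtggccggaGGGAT

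Cd80 held 2 NF-kappaB matches, at -210 to -201 and at -52 to -43, and an AP-1 match directly after the second, at -42 to -36. Slamf7 held an AP-1 match at the same distance, -42 to -36. Icosl held NF-kappaB matches at -111 to -102 and at -71 to -62, of which the second is printed only in part because it runs into an annotated exon, and Cd274 held no match to any of the motifs searched. In windows of 300 bases, which reach 50 bases past the start, 50.8% of all promoters held the NF-kappaB letters and 7.81% the AP-1 letters. Among the promoters not printed, Icam1 had an NF-kappaB match at -120 to -111 and a GAS match (letters TTCNNNGAA, held by 8.30% of all promoters) at -42 to -34, and Pdcd1lg2 an NF-kappaB match at -244 to -235. Neither the ISRE letters (GAAA, any 2 bases, GAAA; 3.44% of all promoters) nor the Iroquois palindrome ACANNTGT (7.38%) occurred in the 6 windows. These matches describe letters in the windows only. The RefSeq starts of Cd80, Slamf7 and Icosl lie inside the genes as GENCODE draws them, and other starts were not searched.

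Irx3 was at 0 in each of the 3 GFP libraries. It had 194, 203 and 165 normalized counts (gene counts divided by 1 size factor per library, as deposited) in IRX3_S389A libraries, 324, 364 and 358 in IRX3_S361A libraries and 165, 170 and 196 in IRX3_WT libraries. IRX3_S361A cells thus held more Irx3 transcript than IRX3_WT cells, with a log2 difference of 0.97 (SE 0.19, limma adjusted p = 0.0002). IRX3_S389A cells held less of it than IRX3_S361A cells (log2 difference -0.90, SE 0.19, limma adjusted p = 0.0009). Differences below between IRX3_S361A and either other IRX3 group are therefore between cells that differ in the amount of Irx3 transcript as well as in the serines. Divided by the value of 1 read, the libraries held 17149058 to 20108002 reads. Macrophage markers were all expressed, with a summed level of 391584 to 405271 normalized counts in IRX3_S389A, 415316 to 427897 in IRX3_S361A, 386989 to 391763 in IRX3_WT and 358591 to 369167 in GFP libraries. Every IRX3 group thus lay above GFP. Of these 8 markers, limma called 6 higher and 2 lower than with GFP with IRX3_S389A, 5 and 1 with IRX3_S361A, and 3 and 2 with IRX3_WT. Of all genes tested, 35.0%, 25.9% and 39.6% were called either way in these comparisons. Scaling the libraries to equal totals changed the marker counts to 3 and 2, 4 and 3, and 3 and 5. Dendritic cells, which express many of the same ligands, were checked with 10 markers, of which 2 averaged at least 10 normalized counts. Their sum was 167 to 197 in IRX3_S389A, 146 to 170 in IRX3_S361A, 173 to 187 in IRX3_WT and 133 to 164 in GFP libraries, and of the 4 that were tested only Ccr7 was called, with IRX3_WT against GFP (log2 difference 1.35, limma adjusted p = 0.0288). That call was lost without the library of each group whose deviations followed transcript GC content most strongly (0.54, adjusted p = 0.509). Zbtb46 missed the threshold with IRX3_S389A against GFP (log2 difference 1.12, limma adjusted p = 0.0704) but was called there by edgeR (1.33, adjusted p = 0.0457). The medians of the 4 tested dendritic markers against GFP were 0.51 with IRX3_S389A, 0.56 with IRX3_S361A and 0.44 with IRX3_WT. Summed dendritic markers of IRX3_S389A and IRX3_WT libraries lay above those of GFP libraries without overlap. The T cell receptor genes Trbc1 and Trbc2 and the neutrophil genes Ly6g, Mpo and Elane were at 0 in all 12 libraries, and 1 of 12 lymphocyte and 2 of 8 neutrophil markers averaged at least 10. The summed neutrophil markers were nonetheless higher in IRX3_WT libraries than in GFP libraries without overlap, at 31.5 to 49.3 in IRX3_S389A, 27.3 to 49.7 in IRX3_S361A, 41.0 to 63.3 in IRX3_WT and 23.2 to 35.3 in GFP libraries. Of the 2 neutrophil markers tested, 1 was called higher than with GFP with IRX3_S389A, 0 with IRX3_S361A and 1 with IRX3_WT, with medians of 0.47, 0.40 and 0.86. The call with IRX3_S389A (limma adjusted p = 0.0474) was lost under equal totals, under TMM and with the replicate number as a block (adjusted p = 0.0926, 0.0518 and 0.0530). The summed stromal and endothelial markers, 4 of 8 genes at 10 or more on average and led by Pdgfrb, stood at 237 to 272 in IRX3_S389A, 173 to 249 in IRX3_S361A, 277 to 293 in IRX3_WT and 113 to 163 in GFP libraries, so that every IRX3 group lay above GFP. Of the 5 tested, 2 were called higher than with GFP with IRX3_S389A and 1 each with IRX3_S361A and IRX3_WT, with medians of 0.77, 0.39 and 0.08. Pdgfrb was lower than with IRX3_WT in IRX3_S389A cells (log2 difference -0.43, a call lost without the libraries with the strongest GC trend) and in IRX3_S361A cells (-0.87). In each of these comparisons 0 of the 5 markers were called higher and 1 lower (15.3% and 15.5% of all genes were called either way). The medians of the 5 markers were 0.23 and 0.62, and those of the ligands -0.19 and -0.41. The part of these other cells in the results was not tested. In bulk RNA, fewer cells of a type and less transcript per cell cannot be told apart.

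The ligands differed widely in level. Per kilobase of exon, Icam1 was the most abundant in every group, with 4032 ± 43.0 normalized counts in IRX3_S389A cells, 3859 ± 248 in IRX3_S361A cells, 4304 ± 244 in IRX3_WT cells and 2629 ± 79.8 in GFP cells (SD, n = 3 each). Cd40, Cd274 and Slamf7 came next, between 2078 ± 161 and 2712 ± 195 in IRX3_WT cells and between 1153 ± 12.4 and 1399 ± 35.9 in GFP cells. Cd83 averaged 481 ± 23.6 in IRX3_WT cells and 275 ± 23.6 in GFP cells, Icosl 263 ± 6.75 and 181 ± 6.98, Cd86 190 ± 19.6 and 133 ± 9.54, and Cd80 142 ± 17.5 and 81.5 ± 3.81. Pdcd1lg2 was nearly silent, at 2.18 ± 1.22 per kilobase in IRX3_WT cells and 1.39 ± 1.41 in GFP cells.

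**Figure D1:**
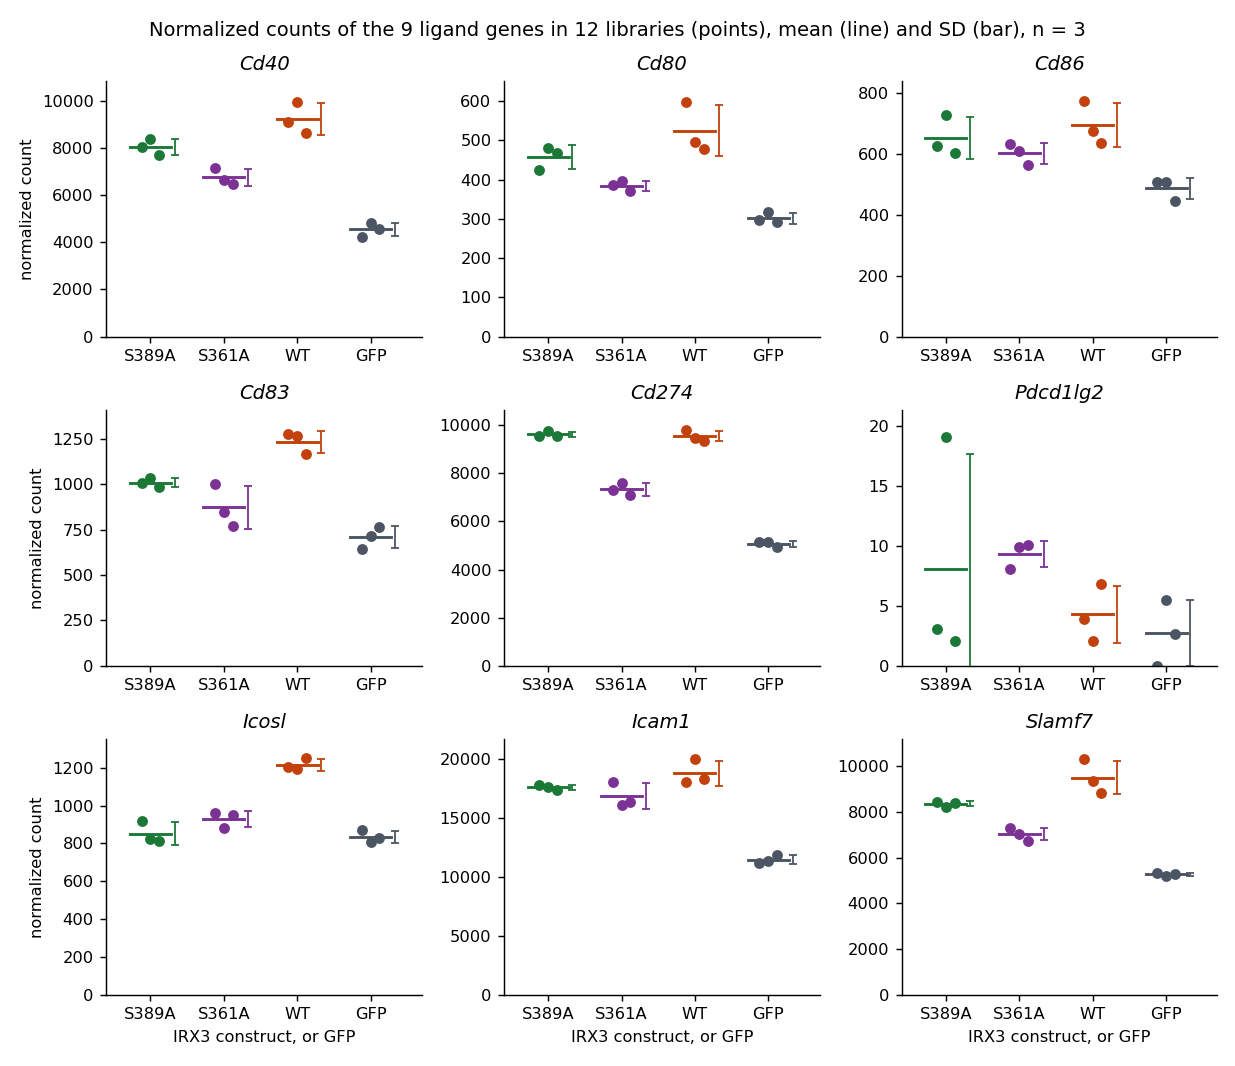
Normalized counts of the 9 ligand genes (y axis, from 0, a different range in each panel) in the 12 libraries, grouped by construct (x axis). Points are libraries, lines are means and bars are the SD of 3 libraries (cut at 0 for Pdcd1lg2); for Cd274 the IRX3_S389A points lie at the height of the IRX3_WT points, and for Icosl at the height of the GFP points.

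With IRX3_WT, the 8 ligands that passed the filter on low values were all higher than with GFP (8 of 8 called, against 21.0% of the 13369 genes tested called higher and 39.6% called either way, limma, Benjamini-Hochberg adjusted p under 0.05). The rises ran from 0.51 for Cd86 to 1.02 for Cd40 on the log2 scale, with a median of 0.80 against -0.01 for all genes tested. None was lower (18.6% of all genes were), and the groups did not overlap for any of the 8 (48.4% of all genes). With IRX3_S389A 7 of 8 were called higher than with GFP (18.8% of all genes called higher, 16.2% lower, 35.0% either way), with a median of 0.61 and groups that did not overlap for 7 (46.4% of all genes). With IRX3_S361A 7 of 8 were called higher as well (14.9% of all genes higher, 10.9% lower, 25.9% either way), with a median of 0.38 and groups that did not overlap for 8 (39.6% of all genes). In both cases the ligand not called was Icosl. These 3 comparisons share the GFP libraries, so their agreement is not independent. Scaling the libraries to equal totals lowered the median of all genes by 0.18, 0.17 and 0.11 for IRX3_WT, IRX3_S389A and IRX3_S361A against GFP and turned the split of all calls from 2805 higher and 2483 lower to 1395 and 5519 for IRX3_WT, from 2516 and 2160 to 1334 and 5397 for IRX3_S389A, and from 1996 and 1461 to 1047 and 3226 for IRX3_S361A. Under it 8, 7 and 6 ligands were called higher against GFP, and Cd86 lost its call with IRX3_S361A (log2 difference 0.19, adjusted p = 0.0591).

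IRX3_S361A cells had 7 of 8 ligands lower than IRX3_WT cells, where 9.07% of all genes were called lower and 15.5% either way, with a median of -0.41 against 0.01 for all genes and groups that did not overlap for 7 (29.3% of all genes). IRX3_S389A cells had 4 of 8 lower than IRX3_WT cells (Cd40, Cd83, Icosl and Slamf7), where 7.08% of all genes were called lower and 15.3% either way, with a median of -0.19 and groups that did not overlap for 5 (29.1% of all genes). No ligand was called higher in either comparison by limma, edgeR or DESeq2. At an adjusted p under 0.05, limma called 6.43% of all genes higher with IRX3_S361A and 8.21% with IRX3_S389A. No ligand was higher by limma at an unadjusted p under 0.05 either, for which the share of all genes is not given here. IRX3_S389A cells had 3 of 8 higher than IRX3_S361A cells (Cd40, Cd274 and Slamf7), where 7.0% of all genes were called higher and 3.16% lower and 10.2% either way, with a median of 0.23 and groups that did not overlap for 4 (25.9% of all genes). All 8 were called by the F-test over the 4 groups, against 44.2% of all genes. Equal totals changed the split of all calls from 859 higher and 1212 lower to 1805 and 754 for IRX3_S361A against IRX3_WT, and from 936 and 423 to 597 and 1053 for IRX3_S389A against IRX3_S361A, while 0 ligands were called higher and 6 lower in the first and 3 higher and 1 lower (Icosl) in the second.

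**Figure D2:**
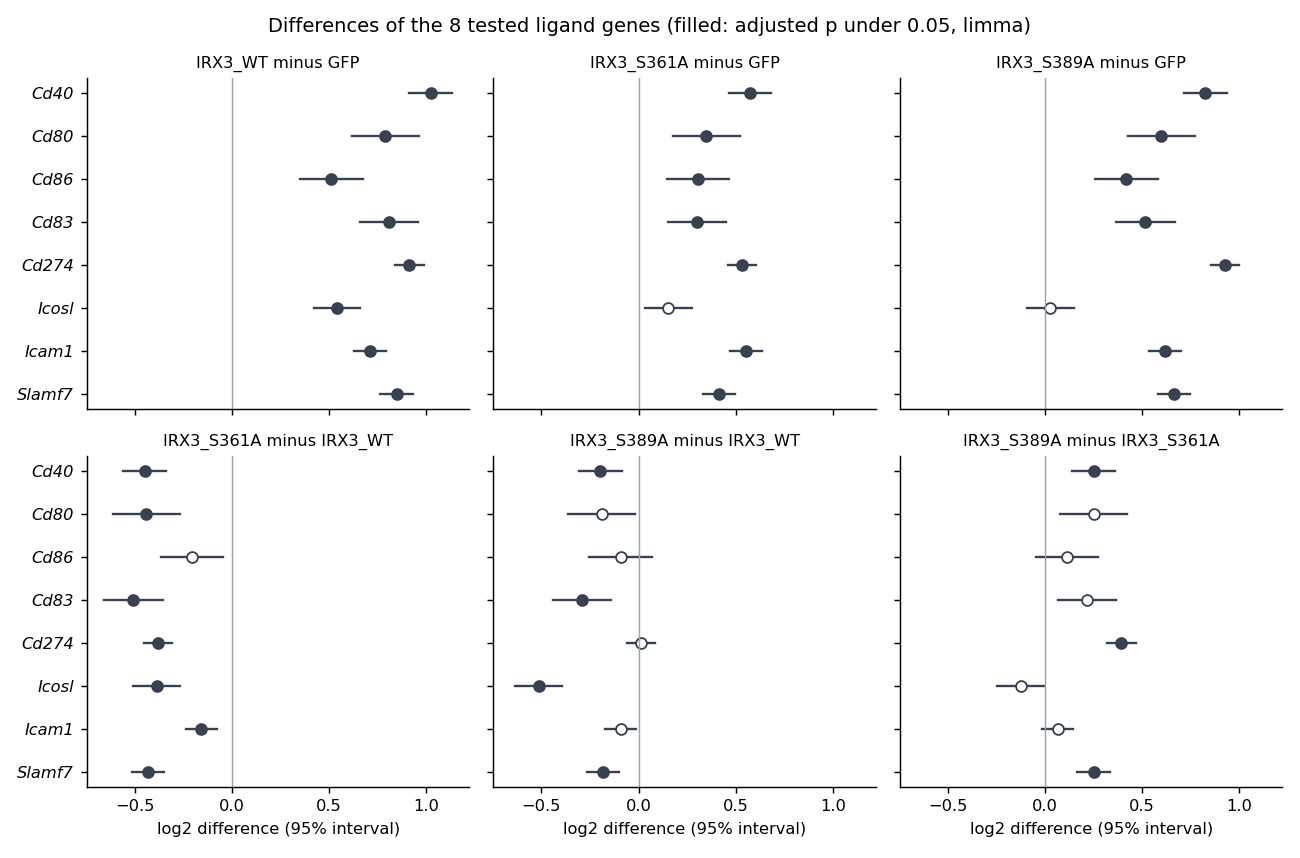
Log2 differences (x axis) of the 8 tested ligand genes in the 6 comparisons, with 95% intervals as lines. Filled points passed an adjusted p of 0.05 in limma and open points did not; the points for Cd274 and Icosl lie at opposite ends in the panels of IRX3_S389A against GFP and against IRX3_WT.

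Cd40 (ENSMUSG00000017652.16, chr2:165055627-165072948, plus strand, GRCm38), the receptor for CD40 ligand, had 8033, 8392 and 7708 normalized counts in IRX3_S389A libraries, 7172, 6628 and 6495 in IRX3_S361A libraries, 9116, 9951 and 8642 in IRX3_WT libraries and 4238, 4820 and 4589 in GFP libraries. The 4 groups did not overlap, and each step of the order IRX3_WT, IRX3_S389A, IRX3_S361A, GFP was called. Cd40 rose most of the 8 with IRX3_WT against GFP, with a log2 difference of 1.02 (SE 0.05, limma adjusted p = 9.59e-13). It was lower in IRX3_S361A cells than in IRX3_WT cells by 0.45 (log2 difference -0.45, SE 0.05) and lower in IRX3_S389A cells than in IRX3_WT cells by less (log2 difference -0.20, SE 0.05, limma adjusted p = 0.0135). The last of these calls was lost when IRX3_S389A replicate 3, IRX3_WT replicate 1 or IRX3_WT replicate 2 was left out (adjusted p = 0.0669, 0.0628 and 0.0536). IRX3_S389A cells exceeded IRX3_S361A cells by 0.25 (SE 0.05, limma adjusted p = 0.0031).

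The signalling genes downstream of CD40 were described with a list of 14 genes (TRAF adaptors, cIAP ligases, noncanonical NF-kappaB and its brakes), all tested. In IRX3_WT cells 11 were higher and 2 lower than in GFP cells, in IRX3_S361A cells likewise 11 and 2, and in IRX3_S389A cells 10 and 2, with medians of 0.54, 0.33 and 0.37. Of all genes tested, 39.6%, 25.9% and 35.0% were called either way in these comparisons. Equal totals changed the counts to 9 and 2, 8 and 2, and 9 and 3, and the medians to 0.37, 0.22 and 0.20. Against IRX3_WT, IRX3_S361A cells had 0 higher and 7 lower, and IRX3_S389A cells 2 higher and 7 lower, where 15.5% and 15.3% of all genes were called either way. Traf1, which encodes an adaptor that binds TRAF2 below CD40, averaged 7663 ± 224 normalized counts with IRX3_S389A, 7394 ± 283 with IRX3_S361A, 9592 ± 333 with IRX3_WT and 5927 ± 81.6 with GFP. Its level in IRX3_S389A cells was below that in IRX3_WT cells by more than that of Cd40 (log2 difference -0.32, SE 0.04), although the difference between those values was not tested. Tnfaip3, the gene of the ubiquitin-editing NF-kappaB brake A20, was among the 3 genes most like Cd40 in pattern, with 14459 ± 122, 12341 ± 485, 15747 ± 369 and 8113 ± 288 counts in the same order of groups. Birc3, the gene of the ubiquitin ligase cIAP2, was higher with each IRX3 construct than with GFP, and lower with IRX3_S389A than with IRX3_WT (log2 difference -0.24).

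Cd80 (ENSMUSG00000075122.5, chr16:38455561-38496335, plus strand) had 424, 481 and 468 normalized counts in IRX3_S389A libraries, 387, 396 and 370 in IRX3_S361A libraries, 599, 495 and 479 in IRX3_WT libraries and 296, 318 and 291 in GFP libraries. Only the IRX3_S389A and IRX3_WT libraries overlapped. Cd80 was higher than in GFP cells by 0.60 with IRX3_S389A, 0.35 with IRX3_S361A and 0.79 with IRX3_WT (SE 0.09 each). It was lower in IRX3_S361A cells than in IRX3_WT cells (log2 difference -0.44, SE 0.09, limma adjusted p = 0.0002). IRX3_S389A cells passed the test neither against IRX3_WT cells (log2 difference -0.19, 95% interval -0.36 to -0.02, adjusted p = 0.135) nor against IRX3_S361A cells (0.25, 95% interval 0.08 to 0.42, adjusted p = 0.0531).

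Cd86 (ENSMUSG00000022901.13, chr16:36603869-36666081, minus strand), the other B7 ligand of CD28 and CTLA-4, had the smallest difference with IRX3_WT against GFP. It had 626, 730 and 603 normalized counts in IRX3_S389A libraries, 632, 610 and 564 in IRX3_S361A libraries, 776, 675 and 637 in IRX3_WT libraries and 507, 508 and 447 in GFP libraries. All IRX3 libraries lay above all GFP libraries, and the IRX3_S389A libraries overlapped both other IRX3 groups. Against GFP cells Cd86 was higher by 0.42 with IRX3_S389A, 0.31 with IRX3_S361A and 0.51 with IRX3_WT (SE 0.08 each). No difference between IRX3 constructs passed the test, and the intervals allow sizes from -0.25 to 0.07 for IRX3_S389A against IRX3_WT, from -0.37 to -0.05 for IRX3_S361A against IRX3_WT (adjusted p = 0.0754) and from -0.05 to 0.27 for IRX3_S389A against IRX3_S361A.

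Because both B7 genes were measured in the same library, their ratio does not depend on how libraries were scaled. Cd80 over Cd86 was 0.677, 0.659 and 0.777 in IRX3_S389A libraries, 0.612, 0.648 and 0.656 in IRX3_S361A libraries, 0.772, 0.734 and 0.752 in IRX3_WT libraries and 0.584, 0.625 and 0.651 in GFP libraries. The 3 IRX3_WT libraries lay above all IRX3_S361A and GFP libraries, and the IRX3_S389A libraries lay on both sides of the IRX3_WT libraries, 2 of them below and 1 above. The ratio differed over the 4 groups (exact permutation test of the F statistic over 369600 assignments, p = 0.0156, adjusted p over 2 ratios = 0.0313). Leaving out single libraries gave exact p-values from 0.0044 to 0.0407, not adjusted over the 2 ratios. That adjustment raised the exact p with all libraries from 0.0156 to 0.0313. The range therefore does not show that the adjusted result holds without each library. Pairs of groups were not tested on this ratio.

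Cd83 (ENSMUSG00000015396.4, chr13:43784775-43803132, plus strand) had 1009, 1034 and 986 normalized counts in IRX3_S389A libraries, 1002, 851 and 770 in IRX3_S361A libraries, 1279, 1265 and 1167 in IRX3_WT libraries and 644, 714 and 765 in GFP libraries. The lowest IRX3_S361A library lay just above the highest GFP library, while the IRX3_WT libraries lay above all others. Cd83 was lower in IRX3_S361A cells than in IRX3_WT cells by more than any other ligand (log2 difference -0.51, SE 0.07, limma adjusted p = 7.71e-06) and lower in IRX3_S389A cells than in IRX3_WT cells (log2 difference -0.29, SE 0.07, adjusted p = 0.0060). Against GFP cells it was higher by 0.52 with IRX3_S389A, 0.30 with IRX3_S361A and 0.81 with IRX3_WT. Without the library of each group whose deviations followed transcript GC content most strongly, a setting added after seeing the data, the rise with IRX3_S361A fell short of the test (0.13, adjusted p = 0.204). Without IRX3_S361A replicate 1 alone it was 0.20 and still called (adjusted p = 0.0341).

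Cd274 (ENSMUSG00000016496.7, chr19:29367455-29388095, plus strand), the PD-L1 gene, did not follow the order of the genes above. It had 9565, 9751 and 9545 normalized counts in IRX3_S389A libraries, 7296, 7604 and 7084 in IRX3_S361A libraries, 9783, 9476 and 9362 in IRX3_WT libraries and 5135, 5150 and 4918 in GFP libraries. IRX3_S389A and IRX3_WT libraries covered the same range, IRX3_S361A libraries lay below both, and GFP libraries lay lowest. Cd274 was higher than in GFP cells by 0.92 with IRX3_S389A, 0.53 with IRX3_S361A and 0.91 with IRX3_WT (SE 0.04 each). The difference between IRX3_S389A and IRX3_WT cells missed the threshold, and its 95% interval runs from -0.06 to 0.08 on the log2 scale (log2 difference 0.01, adjusted p = 0.874). IRX3_S361A cells were below IRX3_WT cells (log2 difference -0.38, SE 0.04, limma adjusted p = 2.59e-10), and IRX3_S389A cells above IRX3_S361A cells by 0.39. Over 14.1% of its exon bases Cd274 overlaps AC119228.1 on the opposite strand, which averaged 982 ± 49.5, 792 ± 41.9, 1011 ± 71.7 and 539 ± 89.8 normalized counts in IRX3_S389A, IRX3_S361A, IRX3_WT and GFP cells. The strand setting of the counting is not given in the sources used here, so reads of these 2 genes cannot be told apart in the overlap.

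Pdcd1lg2 (ENSMUSG00000016498.10, chr19:29410919-29471161, plus strand), the neighbour of Cd274 and gene of the second PD-1 ligand, was hardly detected. It had 3.10, 19.1 and 2.03 normalized counts in IRX3_S389A libraries, 8.10, 9.94 and 10.1 in IRX3_S361A libraries, 3.94, 2.08 and 6.83 in IRX3_WT libraries and 0, 5.53 and 2.67 in GFP libraries, where 3 reads equal 2.67 to 3.41 normalized counts. A single IRX3_S389A library stood at 19.1 and the other two of its group near or below the level of 3 reads. It fell short of the filter, which asks for 10 normalized counts in 3 or more libraries, and was not tested. Without the filter, limma called it higher in IRX3_S361A cells than in GFP cells (log2 difference 1.84, adjusted p = 0.0409) and in none of the other 5 comparisons (adjusted p from 0.274 to 0.867). The ratio of Cd274 to Pdcd1lg2 did not pass an exact permutation test over the 4 groups (p = 0.382).

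Icosl (ENSMUSG00000000732.9, chr10:78069302-78083913, plus strand), the ligand of ICOS, was highest with IRX3_WT. It had 919, 825 and 813 normalized counts in IRX3_S389A libraries, 959, 881 and 951 in IRX3_S361A libraries, 1202, 1194 and 1252 in IRX3_WT libraries and 871, 807 and 831 in GFP libraries. The IRX3_WT libraries lay above all 9 others, the IRX3_S389A libraries overlapped the GFP libraries, and the IRX3_S361A libraries lay just above the GFP libraries. IRX3_WT cells exceeded GFP cells with a log2 difference of 0.54 (SE 0.06, limma adjusted p = 9.94e-10). IRX3_S389A cells did not pass the test against GFP cells (log2 difference 0.03, 95% interval -0.09 to 0.15, adjusted p = 0.775) and were below IRX3_WT cells (log2 difference -0.51, SE 0.06, adjusted p = 3.98e-08). With libraries scaled to equal totals the first of these became a called fall (-0.14, adjusted p = 0.0467), smaller than the fall of the median of all genes under that scaling (-0.17). IRX3_S361A cells were below IRX3_WT cells (log2 difference -0.39, SE 0.06) and came close to the threshold against GFP cells (0.15, 95% interval 0.03 to 0.27, adjusted p = 0.0522), which they passed under 7 of the 24 alternative settings.

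Cd274 and Icosl were the least alike of all 28 pairs of tested ligands, with a root-mean-square difference of 0.32 between their centred log2 group means. The ratio of Cd274 to Icosl, a pair picked after its values were seen and therefore given without a test, was 10.4, 11.8 and 11.7 in IRX3_S389A libraries, 7.61, 8.64 and 7.45 in IRX3_S361A libraries, 8.14, 7.94 and 7.48 in IRX3_WT libraries and 5.90, 6.38 and 5.92 in GFP libraries. The IRX3_S389A libraries lay above all others, the IRX3_S361A and IRX3_WT libraries overlapped, and the GFP libraries lay lowest.

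**Figure D3:**
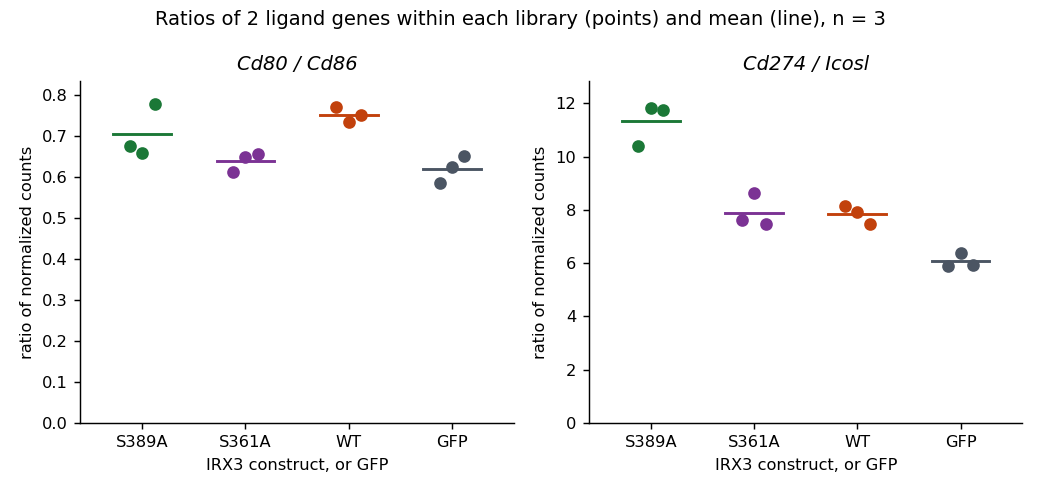
Ratios of normalized counts within each library (y axis, from 0) of Cd80 to Cd86 and of Cd274 to Icosl, by construct (x axis); points are libraries and lines are means of 3. The 3 IRX3_S389A libraries have the highest ratios of Cd274 to Icosl (10.4 to 11.8), and the IRX3_WT libraries have ratios of Cd80 to Cd86 between 0.734 and 0.772.

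Icam1 (ENSMUSG00000037405.8, chr9:21015985-21028817, plus strand), whose protein holds T cells to the macrophage through LFA-1, had 17743, 17625 and 17376 normalized counts in IRX3_S389A libraries, 18062, 16073 and 16340 in IRX3_S361A libraries, 18032, 19985 and 18281 in IRX3_WT libraries and 11187, 11344 and 11852 in GFP libraries. All IRX3 libraries lay far above the GFP libraries and close to each other. Against GFP cells it was higher by 0.62 with IRX3_S389A, 0.55 with IRX3_S361A and 0.71 with IRX3_WT (SE 0.04 each). IRX3_S361A cells were below IRX3_WT cells by a small amount (log2 difference -0.16, SE 0.04, limma adjusted p = 0.0050), with groups that overlapped, and the call was lost under equal totals (-0.09, adjusted p = 0.0908) and without IRX3_WT replicate 2 (-0.11, adjusted p = 0.0559). IRX3_S389A cells did not pass the test against IRX3_WT cells (log2 difference -0.09, 95% interval -0.17 to -0.01, adjusted p = 0.119). Icam1 overlaps Gm47079 on the opposite strand over 11.7% of its exon bases, and that gene had at most 4.15 normalized counts in any library.

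Slamf7 (ENSMUSG00000038179.13, chr1:171632403-171653035, minus strand) had 8448, 8238 and 8407 normalized counts in IRX3_S389A libraries, 7318, 7043 and 6757 in IRX3_S361A libraries, 10307, 9373 and 8855 in IRX3_WT libraries and 5333, 5219 and 5282 in GFP libraries. As with Cd40, the 4 groups did not overlap, and every step between them was called. It was higher than in GFP cells by 0.66 with IRX3_S389A, 0.41 with IRX3_S361A and 0.85 with IRX3_WT (SE 0.04 each), lower in IRX3_S361A cells than in IRX3_WT cells (log2 difference -0.43, limma adjusted p = 5.65e-10) and lower in IRX3_S389A cells than in IRX3_WT cells (log2 difference -0.18, adjusted p = 0.0016). IRX3_S389A cells exceeded IRX3_S361A cells by 0.25 (SE 0.04, adjusted p = 4.25e-05). Gm37787 overlaps 9.24% of its exon bases on the opposite strand and had at most 20.8 normalized counts.

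Over the 4 groups Cd80 and Slamf7, whose promoters are printed above, differed in centred log2 group means by a root-mean-square of 0.03, the smallest of the 28 pairs, and Cd80 and Cd83 by 0.04. Outside the ligands, 8742 genes with a mean of at least 100 normalized counts were ranked by the same measure over the 4 group means. Among the nearest genes were Malt1 and Tnfaip3 for Cd40, Gpr132, Slc16a3 and Clcf1 for Cd80, Prdx5, Fchsd2 and Nr3c1 for Cd86, and St3gal3, Sema4a and Clcf1 for Cd83. For Cd274 they were Ifih1, the gene of the RNA sensor MDA5, then the overlapping AC119228.1, then Plpp3. They were Samsn1, Ube2c and Rab20 for Icosl, Stk40, Hivep2 and Rassf4 for Icam1, and Slc16a3, Ptch1 and Tnfrsf1b for Slamf7. Slc16a3, a lactate exporter gene, was thus near both Cd80 and Slamf7.

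Beyond the 9 genes, a list of 22 other costimulatory and coinhibitory ligands had 17 tested. Of these, 12 were higher and 1 lower with IRX3_S389A than with GFP, 7 and 1 with IRX3_S361A, and 9 and 2 with IRX3_WT, and equal totals changed these counts to 9 and 2, 6 and 2, and 6 and 5. Of all genes tested, 35.0% were called in either direction with IRX3_S389A, 25.9% with IRX3_S361A and 39.6% with IRX3_WT, and the counts of this and the following lists stand beside those shares. Tnfsf15, which encodes the T cell costimulator TL1A, averaged 4853 ± 183 normalized counts with IRX3_S389A, 3029 ± 256 with IRX3_S361A, 4279 ± 274 with IRX3_WT and 1950 ± 64.7 with GFP. It was higher in IRX3_S389A cells than in IRX3_WT cells by 0.18 (SE 0.05, limma adjusted p = 0.0121) and lower in IRX3_S361A cells than in IRX3_WT cells (log2 difference -0.50, SE 0.05). Nectin2, a ligand of DNAM-1, had 1316 ± 91.0, 1040 ± 63.2, 1471 ± 116 and 835 ± 35.0 counts in the same order of groups. Tnfrsf14, which encodes the BTLA ligand HVEM, was higher with every IRX3 construct than with GFP by 0.57 to 0.64 and was not called between IRX3 constructs. Cd47, the gene of the signal that binds SIRP-alpha, was higher by 0.28 with IRX3_S389A, 0.23 with IRX3_S361A and 0.40 with IRX3_WT.

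Of 8 tested relatives of Slamf7 and their adaptors, 3 were higher and 1 lower with IRX3_S389A than with GFP, 1 and 1 with IRX3_S361A, and 3 and 1 with IRX3_WT, shares near those of all genes, and equal totals changed the counts to 1 and 1, 1 and 3, and 2 and 2. Cd84, a self-binding family member, was lower with each IRX3 construct than with GFP, where Slamf7 was higher, with 3217 ± 98.9 normalized counts with IRX3_S389A, 2931 ± 13.8 with IRX3_S361A, 2565 ± 120 with IRX3_WT and 3856 ± 139 with GFP. It was higher in IRX3_S389A cells than in IRX3_WT cells by 0.33 and in IRX3_S361A cells than in IRX3_WT cells by 0.19, again opposite to Slamf7. Between IRX3_S389A and IRX3_S361A cells, however, Cd84 differed in the same direction as Slamf7 (0.13, limma adjusted p = 0.0384), a call that was lost under equal totals (0.08, adjusted p = 0.236), TMM and edgeR. Slamf1 rose by 2.21 with IRX3_WT against GFP from a low level (24.7 ± 2.98 against 4.57 ± 0.948 counts). Ly9 was higher with IRX3_WT (0.34) and with IRX3_S389A (0.17), the second only without scaling to equal totals, and Cd48 with IRX3_WT (0.22), which was also lost under equal totals. The median of this list against GFP was 0.12, -0.01 and 0.09 for IRX3_S389A, IRX3_S361A and IRX3_WT and below 0 for all 3 under equal totals.

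Among 15 tested relatives of Icam1, leukocyte integrins and their linkers, 7 were higher and 1 lower with IRX3_S389A than with GFP, 5 and 1 with IRX3_S361A, and 8 and 2 with IRX3_WT; equal totals changed these counts to 4 and 6, 3 and 3, and 6 and 5. Vcam1, the gene of the ligand of the integrin VLA-4, averaged 1489 ± 47.9 normalized counts with IRX3_S389A, 1199 ± 56.1 with IRX3_S361A, 1826 ± 110 with IRX3_WT and 668 ± 31.4 with GFP. Its rise with IRX3_WT (1.45, SE 0.06) was larger than that of any of the 9 ligands. Itgal, which encodes the alpha chain of LFA-1, the receptor of ICAM-1, had 14020 ± 498, 16770 ± 309, 19579 ± 449 and 14243 ± 164 counts in the same order. As with Icosl, IRX3_S389A cells were below IRX3_WT cells (log2 difference -0.48, SE 0.03) and did not pass the test against GFP cells (-0.02, adjusted p = 0.627), though under equal totals they were called lower (-0.19). Itgax, which encodes CD11c, was instead highest with IRX3_S389A, at 5568 ± 62.4, against 4588 ± 155 with IRX3_S361A, 4195 ± 76.3 with IRX3_WT and 3346 ± 257 with GFP.

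**Figure D4:**
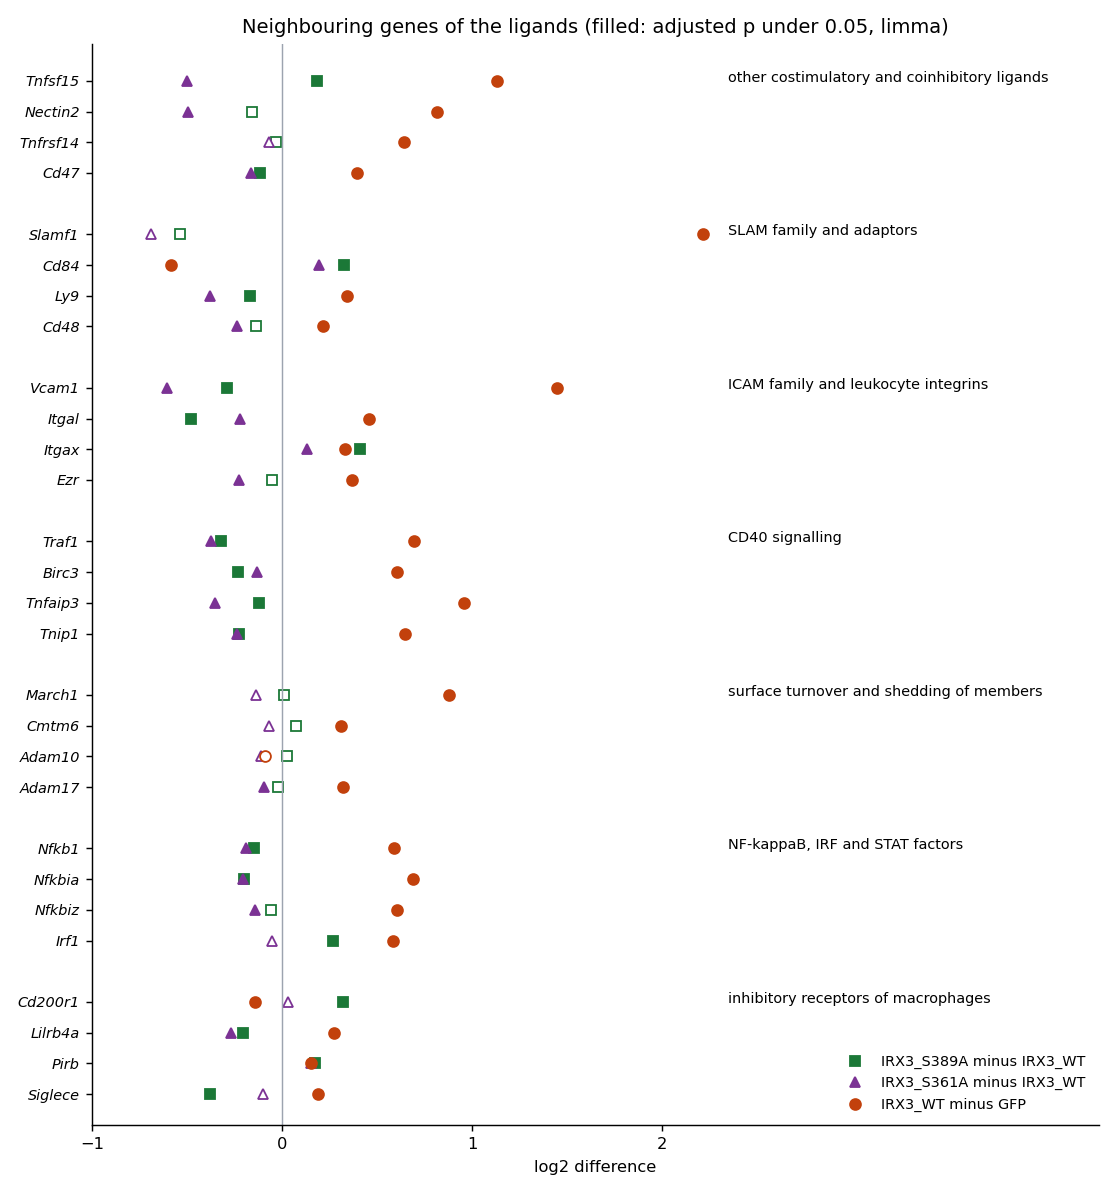
Log2 differences (x axis) of the named genes of 7 related lists for IRX3_S389A minus IRX3_WT (squares), IRX3_S361A minus IRX3_WT (triangles) and IRX3_WT minus GFP (circles); filled symbols passed an adjusted p of 0.05 in limma. Tnfsf15, Itgax and Irf1 have squares to the right of 0, and Itgal and Traf1 squares to the left.

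The transcription factors that act on these ligands after LPS were described with a list of 26 NF-kappaB, IRF, STAT and AP-1 genes, 25 of them tested, some of which also stand among the CD40 genes. With IRX3_S389A 18 were higher and 3 lower than with GFP, and with IRX3_S361A and IRX3_WT 17 and 3 each, with medians of 0.44, 0.30 and 0.40. Equal totals changed the counts to 15 and 4, 13 and 5, and 15 and 8, and the medians to 0.27, 0.19 and 0.22. Against IRX3_WT, IRX3_S389A cells had 5 higher and 8 lower and IRX3_S361A cells 1 higher and 11 lower, where 15.3% and 15.5% of all genes were called either way. Nfkb1, the gene of the p50 subunit, was lower than in IRX3_WT cells in IRX3_S389A cells (log2 difference -0.15) and in IRX3_S361A cells (-0.19). Irf1, an interferon regulatory factor known to induce Cd274, had 6143 ± 52.3 normalized counts with IRX3_S389A, 4933 ± 296 with IRX3_S361A, 5122 ± 396 with IRX3_WT and 3411 ± 83.7 with GFP. It was higher in IRX3_S389A cells than in IRX3_WT cells by 0.27 (SE 0.05, limma adjusted p = 5.72e-05), and IRX3_S361A cells did not pass the test against IRX3_WT cells (-0.05, adjusted p = 0.505).

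Surface amounts of the ligand proteins also depend on turnover, and 10 genes with such roles were all tested. With IRX3_S389A 3 were higher and 1 lower than with GFP, with IRX3_S361A 3 and 1, and with IRX3_WT 5 and 1, with medians of 0.01, 0.08 and 0.07. Under equal totals the counts were 3 and 5, 3 and 2, and 4 and 5, and the medians were below 0. March1, the gene of a ubiquitin ligase that removes CD86 from the surface, had 3234 ± 99.4, 2926 ± 260, 3218 ± 137 and 1749 ± 47.8 normalized counts with IRX3_S389A, IRX3_S361A, IRX3_WT and GFP. Cmtm6, whose protein keeps PD-L1 at the surface, was higher with IRX3_S389A (0.38), IRX3_S361A (0.24) and IRX3_WT (0.31) than with GFP. Protein was not measured.

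Of 6 genes of T cell surface proteins that bind these or related ligands (Cd28, Ctla4, Icos, Cd40lg, Cd2 and Cd226), only Cd28 passed the filter. It had 78.7 ± 28.1 normalized counts with IRX3_S389A, 67.2 ± 18.8 with IRX3_S361A, 44.6 ± 11.1 with IRX3_WT and 210 ± 7.13 with GFP. It was lower than with GFP (log2 differences -1.47, -1.67 and -2.24 in the same order of constructs, SE 0.24 each), opposite to the ligand genes Cd80 and Cd86. Among 10 tested inhibitory receptors of macrophages, 2 were higher and 3 lower with IRX3_S389A than with GFP, 2 and 1 with IRX3_S361A, and 5 and 3 with IRX3_WT, and equal totals changed these counts to 1 and 6, 1 and 5, and 1 and 4. Siglece, the gene of a sialic acid receptor, was lower with IRX3_S389A (1046 ± 84.8) than with IRX3_WT (1360 ± 69.9, log2 difference -0.38).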

How the data were processed

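The authors deposited a table of 55401 genes in 12 libraries. Its name speaks of raw counts, but each column of the deposited signal holds whole multiples (100% of values, to a tolerance of 1e-06) of 1 step whose product with the median-of-ratios size factor is 1, so the values are gene counts divided by 1 size factor per library ("normalized counts"). Whole reads are claimed as recovered for 9 libraries, since in 3 the step lay within 1% of 1. HISAT2 2.1.0, StringTie 1.3.5, mm10 and Trimmomatic, without a version, are the tools and build per the submitters' processing notes. Which counter, strand setting and annotation were used is not given in the sources used here, so values of overlapping genes are uncertain. Gene IDs were matched to GENCODE M21 (99.5% without version), and promoters to RefSeq on GRCm38.p6.

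The 13369 genes that reached 10 normalized counts in 3 or more libraries entered limma 3.58.1 (R 4.3.3, trend and robust) on log2(value + 1). All 12 libraries entered 1 fit with 8 residual degrees of freedom, with Benjamini-Hochberg adjustment over all genes and a threshold of 0.05. The pseudocount understates the change of low genes. Alternatives were pseudocounts of 0.5 and 5, other filters, scaling to equal totals, TMM, edgeR 4.0.16 and DESeq2 1.42.0 on all values divided by their library's step, the replicate number as a block, only the groups compared, leaving out each library and 2 settings added after seeing the data. The fits were tested on simulated data. Ratios of genes within a library were tested by an exact permutation test. Values divided by the step summed to 17149058 to 20108002 reads per library, and 3 reads, the counting floor, equal 2.67 to 3.41 normalized counts, which covers counting error only. The members and gene lists were chosen with earlier results of these data known. The rule for names took all 9 ligands, Irx3, of each list up to 4 genes with the smallest p over the 4 groups, and the 3 genes nearest to each ligand by group means, without Gm and Rik symbols. Not every gene it chose is named, and 1 is not reported here.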

Additional observations from a re-analysis of the deposited data

How the results depend on the processing

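Of 48 differences of single ligands (8 genes in 6 comparisons), 36 were called, and 29 of these kept call and direction under all 24 alternatives run. The 1 that reversed was Icosl in IRX3_S389A against GFP, not called in the first place, which became -0.14 under equal totals. The count of ligands called in IRX3_S389A against IRX3_S361A, 3 in the report, was 5 without the libraries with the strongest GC trend and 1 with edgeR on the 9 libraries with recovered reads, where Cd40 and Slamf7 lost their calls (adjusted p = 0.416 and 0.122); Cd80 in IRX3_S361A against GFP also lost its call there with a difference that stayed at 0.35 (adjusted p = 0.0666), and Icam1 in IRX3_S361A against IRX3_WT lost its call with a difference of -0.06 in place of -0.16 (adjusted p = 0.605). That setting has fewer libraries, and it called 2121 genes in IRX3_S361A against GFP in place of 3457, 1228 in IRX3_S361A against IRX3_WT in place of 2071, 1361 in IRX3_S389A against IRX3_WT in place of 2043 and 355 in IRX3_S389A against IRX3_S361A in place of 1359. Without the libraries with the strongest GC trend, IRX3_S361A against IRX3_WT gave 1257. On the values of all 12 libraries divided by their step, edgeR called 5271 genes in IRX3_WT, 3469 in IRX3_S361A and 4694 in IRX3_S389A against GFP, 2010 in IRX3_S361A and 1906 in IRX3_S389A against IRX3_WT and 1253 in IRX3_S389A against IRX3_S361A.

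Leaving out 1 library at a time gave 8 to 8 ligands called in IRX3_WT against GFP, 7 to 8 in IRX3_S361A against GFP, 7 to 7 in IRX3_S389A against GFP, 6 to 8 in IRX3_S361A against IRX3_WT, 3 to 4 in IRX3_S389A against IRX3_WT and 3 to 5 in IRX3_S389A against IRX3_S361A, where the 5 came without IRX3_S361A replicate 1 (Cd83 and Icam1 added) and the count of all genes ran from 904 (without IRX3_S361A replicate 3) to 1415. The cause of these shifts was not tested.

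With the replicate number as a block, 8, 8, 7, 8, 4 and 3 ligands were called in the order IRX3_WT, IRX3_S361A and IRX3_S389A against GFP, IRX3_S361A and IRX3_S389A against IRX3_WT and IRX3_S389A against IRX3_S361A, with Icosl in IRX3_S361A against GFP (0.0489) and Cd86 in IRX3_S361A against IRX3_WT (0.0483) added, 5241, 3387, 4637, 2023, 1982 and 1322 genes in all, and an exact p of 0.0156 for Cd80 over Cd86 and 0.403 for Cd274 over Pdcd1lg2. Libraries with the same number did not deviate together (correlations from -0.04 to 0.03 over 18 pairs, and 3 of 12 libraries correlated best with their own number). Whether they share an animal, culture or batch cannot be told from these correlations. Depth limits Pdcd1lg2, whose values lie near the counting floor.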
